A study of Drosophila melanogaster with 10 samples.

Results

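The ecdysteroid kinase-like (EcKL) gene cluster of *Drosophila melanogaster* is a run of related genes on chromosome arm 3R, and 10 of its genes were followed here in testes of *tbrd-1* mutants and wild-type flies: *CG11889*, *CG11891*, *CG11878*, *CG11892*, *CG11893*, *CG10550*, *CG10553*, *CG10560*, *CHKov1* and *CHKov2*. A probe set counted as a member if the platform annotation paired it with exactly 1 of these genes, which gave 10 probe sets of 9 genes among the 18769 probe sets and 11982 genes tested. *CG11889* shares its single probe set with *CG11891* and has no member of its own. The genes were selected on the contrast between the genotypes, with the rise of *CG11893* and the fall of *CHKov1* in the mutant known. The differences of the members between the genotypes are therefore given as a description and without a test. Confidence intervals of members describe the precision of a value and are not read as tests.

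EcKL proteins share a kinase-like fold with choline and ethanolamine kinases. In the silkworm an ecdysteroid kinase of this family attaches phosphate to the moulting hormones, the ecdysteroids, and so turns them into inactive conjugates that can be stored. Most of the fly genes have no assigned substrate, and the family is known for expression in the gut, the Malpighian tubules (the kidney-like organs of insects) and the fat body. *CHKov1* is known in *D. melanogaster* for a natural insertion of a Doc retroelement that shortens its transcript. Which *CHKov1* allele the strains carried is not given in the sources used here.

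Whole testes of males 0 to 2 days old were compared on Affymetrix Drosophila Genome 2.0 arrays. The mutant flies were homozygous for *tbrd-1* allele 1 (tbrd-11/tbrd-11), in which a remobilized P element disrupts *tbrd-1*, a gene for a bromodomain protein of spermatocytes, and the wild-type strain was w1118. Each genotype had 5 arrays, each with independent RNA pooled from 25 animals, and each came from 1 strain, so that the *tbrd-1* allele and any other difference between the strains cannot be told apart. This bears on the cluster because *tbrd-1* lies on the same arm.

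The values are signal intensities after robust multi-array averaging (RMA), a background correction and normalization over all arrays. They are linear whole numbers without detection calls, and their precision is limited by the number of arrays. The log2-fold changes are mean log2 signals of the mutant minus those of wild-type, given with their standard error (SE) from limma. A probe set was called up-regulated or down-regulated where its p, adjusted by Benjamini and Hochberg over all probe sets, did not exceed 0.05 and its log2-fold change reached 1 in either direction. Probe sets differ in how well they bind, so no level of a gene was set against that of another.

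The *tbrd-1* signal was 10 to 16 on the mutant arrays and 630 to 975 on the wild-type arrays, without overlap. Markers of the labelled tissue were bright, with a mean log2 signal of 10.57 to 10.70 in the mutant and 10.62 to 10.95 in wild-type over 15 genes of spermatocytes and sperm, against 4.96 to 5.09 and 4.88 to 5.10 over 14 eggshell genes that a testis should lack. The list of spermatocyte and sperm genes includes *tbrd-1* itself (mean signal 13.8 in the mutant and 787 in wild-type), which lowers its mutant mean. The median log2-fold change of that list was 0.13, but 2 of its genes were past the thresholds for down-regulation and 2 past those for up-regulation. The mean signal of *mia* was 925 in the mutant and 296 in wild-type, and that of *can* was 253 and 546. Other tissues were present too. For 12 accessory gland genes the mean lay between 13.00 and 13.22 on mutant arrays and between 13.06 and 13.18 on wild-type arrays. The mean over 10 muscle genes was lower in the mutant without overlap, at 8.30 to 8.70 as against 8.85 to 9.09 in wild-type. The mean over 7 fat body genes was lower as well, at 6.11 to 6.35 in the mutant and 6.46 to 6.75 in wild-type, but through the yolk protein gene *Yp3* (mean signal 37.0 in the mutant and 545.6 in wild-type), and the median log2-fold change of the list was 0.16. In pooled tissue, fewer cells of a type and less RNA per cell cannot be told apart.

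The lists of the gut and the Malpighian tubules varied from array to array within each genotype. The mean over the 26 of 33 listed digestive enzyme genes of the gut that have a probe set was 4.97, 5.72, 7.51, 5.33 and 4.85 on mutant replicates 1 to 5 and 8.61, 5.43, 8.71, 7.74 and 4.84 on wild-type replicates 1 to 5. Mutant replicate 3 and wild-type replicates 1, 3 and 4 were thus the bright arrays. Over the 7 of 8 listed tubule genes with a probe set (*Irk1*, *Irk2*, *ZnT35C*, *Oatp58Da*, *Oatp58Db*, *Oatp58Dc* and *Best2*) the mean was 8.21, 8.99, 8.42, 7.87 and 8.10 on mutant replicates 1 to 5 and 9.04, 7.74, 9.27, 8.35 and 8.43 on wild-type replicates 1 to 5. Mutant replicate 2 and wild-type replicates 1 and 3 were highest in the tubule genes and wild-type replicate 2 was lowest. *Irk1*, a potassium channel gene, ranged from 148 to 395 in the mutant and from 148 to 719 in wild-type, whereas the chloride channel gene *Best2* stayed between 494 and 662 in the mutant and between 602 and 745 in wild-type and did not follow the other tubule genes.

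Of the 10 member probe sets, 1 (*CG11893*) was past the thresholds for up-regulation and 1 (a probe set of *CHKov1*) past those for down-regulation, where 1.18% and 2.36% of all probe sets were. The same probe sets were the ones without overlap between the genotypes, with 1 member above and 1 below wild-type on every mutant array, as were 13.6% and 10.3% of all probe sets. Since the contrast chose the members, nothing is read from these shares. The median log2-fold change was 0.05 over the 10 members and 0.07 over all probe sets. Median centring of the arrays shifted all values by 0.10 and changed neither count of members. What set the members apart from each other was their spread. Within a genotype the SD of the log2 signal ran from 0.12 for *CHKov1* to 1.05 for *CG11878*, as compared with a median of 0.13 and a 95th percentile of 0.35 over all probe sets.

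**Figure D1:**
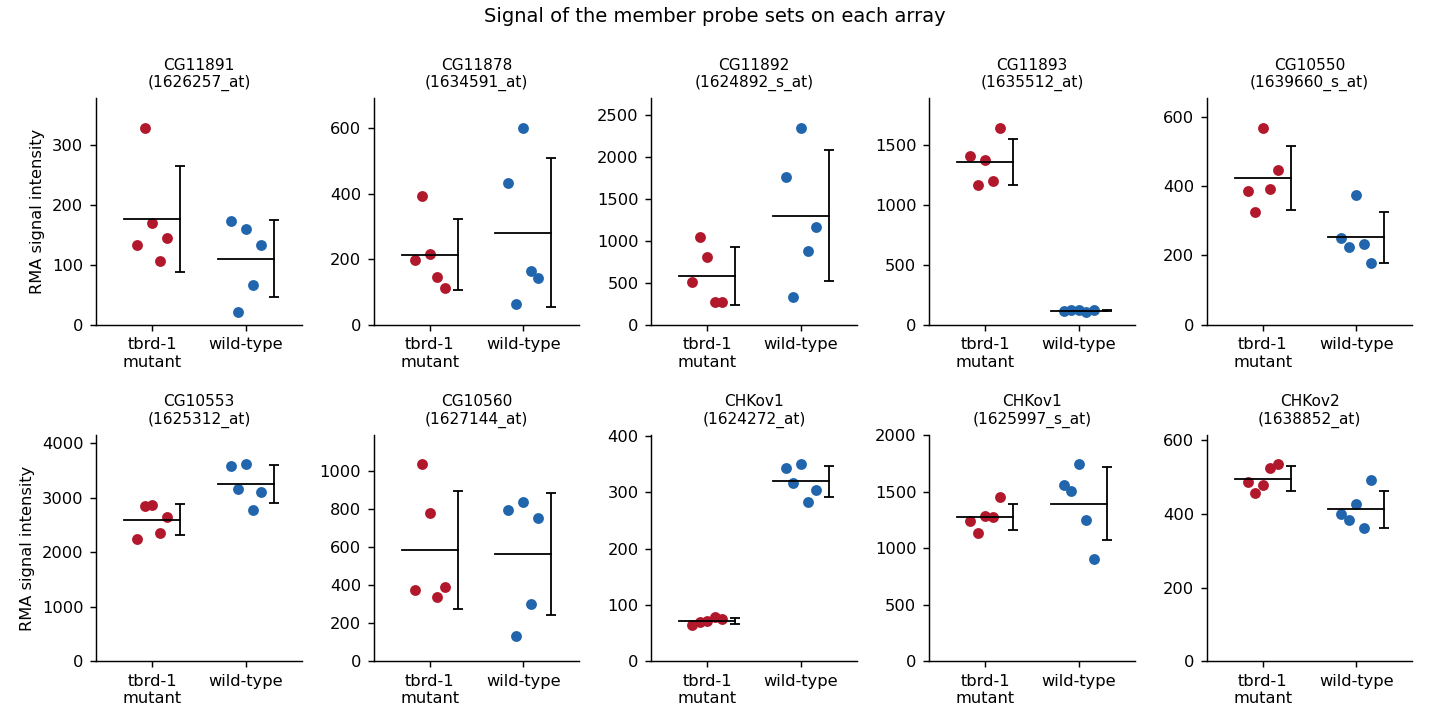
RMA signal intensity (linear scale from 0) of the 10 member probe sets on each array, *tbrd-1* mutant on the left and wild-type on the right of each panel, with lines for means and bars for SD (n = 5). *CG11893* and 1 probe set of *CHKov1* separate the genotypes, while *CG11878*, *CG11891*, *CG11892* and *CG10560* spread widely within both.

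*CG11893* was the member with the largest difference. It lies near the middle of the cluster, 10th of 26 genes. The signal of its probe set 1635512_at was 1402, 1161, 1371, 1193 and 1642 on mutant replicates 1 to 5 and 114, 121, 125, 108 and 119 on wild-type replicates 1 to 5. All mutant arrays were thus about 1 order of magnitude above all wild-type arrays, and the spread within each genotype was small against that gap. With means of 1354 ± 193 in the mutant and 117 ± 6.58 in wild-type (SD, n = 5), the log2-fold change was 3.52 (SE 0.09, 95% confidence interval 3.32 to 3.72), an 11.5-fold higher signal. It lay between 3.35 and 3.62 over 19 other settings of the analysis.

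A further probe set, 1636515_at, is paired with both *CG11893* and *CG14354*, so its signal cannot be given to either gene. It read 1270, 1172, 1275, 1300 and 1235 in the mutant and 1083, 1304, 1131, 1273 and 1060 in wild-type. The genotypes overlapped, and the log2-fold change was 0.10 (SE 0.07). The large difference thus appeared on the probe set of *CG11893* alone.

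*CHKov1* gave different answers on its pair of probe sets. On 1624272_at the signal was 64, 70, 72, 78 and 76 in the mutant and 344, 317, 350, 283 and 305 in wild-type. Every mutant array lay far below every wild-type array, with means of 72.0 ± 5.48 and 320 ± 27.7 (SD, n = 5) and a log2-fold change of -2.15 (SE 0.08, 95% confidence interval -2.32 to -1.98). This is a 4.44-fold lower signal, and over the 19 other settings the log2-fold change lay between -2.19 and -1.93. On 1625997_s_at, whose suffix marks probes that can match several transcripts, the signal was 1243, 1138, 1288, 1280 and 1456 in the mutant and 1557, 1506, 1745, 1254 and 907 in wild-type. The mutant values fell inside the wild-type range here, with the lowest value of all on wild-type replicate 5. The log2-fold change was -0.09 (SE 0.15, 95% confidence interval -0.43 to 0.25) and turned to 0.01 with median centring. The decrease thus held for 1 of the probe sets of *CHKov1*, and which transcripts each one detects is not given in the files. The member probe sets of *CG10550* (1639660_s_at) and *CG11892* (1624892_s_at) carry the same suffix as 1625997_s_at, so the same limit holds for their values.

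*CHKov2*, the next and last gene of the cluster, showed a small difference in the other direction. Its signal was 485, 455, 479, 523 and 534 in the mutant and 400, 383, 425, 362 and 491 in wild-type, so that only wild-type replicate 5 reached into the mutant range. The means were 495 ± 32.6 and 412 ± 49.7 (SD, n = 5), and the log2-fold change was 0.27 (SE 0.09).

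*CG11889* and *CG11891*, the first genes of the cluster, share the probe set 1630429_s_at. Its signal was 1103, 1150, 1265, 1086 and 1249 in the mutant and 290, 230, 301, 178 and 252 in wild-type. Every mutant array lay above every wild-type array, with a log2-fold change of 2.25 (SE 0.13) or a 4.75-fold higher signal, and the values within a genotype were tight. *CG11891* also has a probe set of its own, 1626257_at, with 133, 330, 171, 106 and 145 in the mutant and 173, 22, 160, 66 and 133 in wild-type. There the genotypes overlapped, mutant replicate 2 was highest and wild-type replicate 2 lowest, and the log2-fold change of 0.89 had an SE of 0.53. The share of *CG11889* in the shared signal cannot be told apart from that of *CG11891*.

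Nearer to the *CHKov* end of the cluster *CG10550* and *CG10553* differed by less than the fold minimum. *CG10550* had 385, 324, 569, 392 and 446 in the mutant and 251, 225, 375, 233 and 178 in wild-type. Wild-type replicate 3 overlapped with the mutant arrays, and replicate 3 was the highest array in both genotypes. The log2-fold change was 0.76 (SE 0.19), and with the gut list as a covariate it was 1.00 (SE 0.15), just past the fold minimum. *CG10553* ran the other way, with 2247, 2856, 2874, 2349 and 2655 in the mutant and 3584, 3163, 3615, 2781 and 3105 in wild-type. Its groups overlapped through wild-type replicate 4 alone, and the log2-fold change was -0.32 (SE 0.10).

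For the other 3 members the arrays of a genotype differed more than the genotypes did. *CG11878* had 197, 393, 217, 146 and 113 in the mutant and 433, 62, 602, 165 and 142 in wild-type, with its extremes, 62 and 602, both in wild-type. *CG11892* had 506, 1051, 802, 268 and 267 in the mutant and 1763, 333, 2350, 879 and 1163 in wild-type. *CG10560* had 374, 1037, 779, 338 and 393 in the mutant and 796, 136, 836, 304 and 755 in wild-type. All of them had their lowest wild-type value on replicate 2, their highest wild-type value on replicate 3 and their highest mutant value on replicate 2. The log2-fold changes were -0.09 (SE 0.56) for *CG11878*, -1.11 (SE 0.54) for *CG11892* and 0.19 (SE 0.52) for *CG10560*. *CG11892* exceeded the fold minimum with a large SE, and without wild-type replicate 2 its log2-fold change was -1.53. *CG11891*, at 0.89, and *CG10550*, at 0.76, stood next to the fold minimum from below.

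These changes of order from array to array did not come into the choice of the members. Their relation to the tissue markers was therefore tested across all probe sets, with limma, as the slope of the log2 signal on the mean of a marker list with genotype in the same fit. The slope test was chosen after seeing the data. Of the 10 members, 4 had a positive slope on the Malpighian tubule list at an adjusted p of at most 0.05, where 1.4% of all probe sets outside that list had one. They were *CG11878* (slope 1.93, SE 0.17, adjusted p = 0.00023 from limma), *CG11892* (1.81, SE 0.19, adjusted p = 0.00073), *CG11891* (1.73, SE 0.24, adjusted p = 0.0039) and *CG10560* (1.65, SE 0.26, adjusted p = 0.0078). A slope of 1 means that the member changed by the same factor as the mean of the list, so these members changed more steeply than the list itself, in which *Best2* stayed level.

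**Figure D2:**
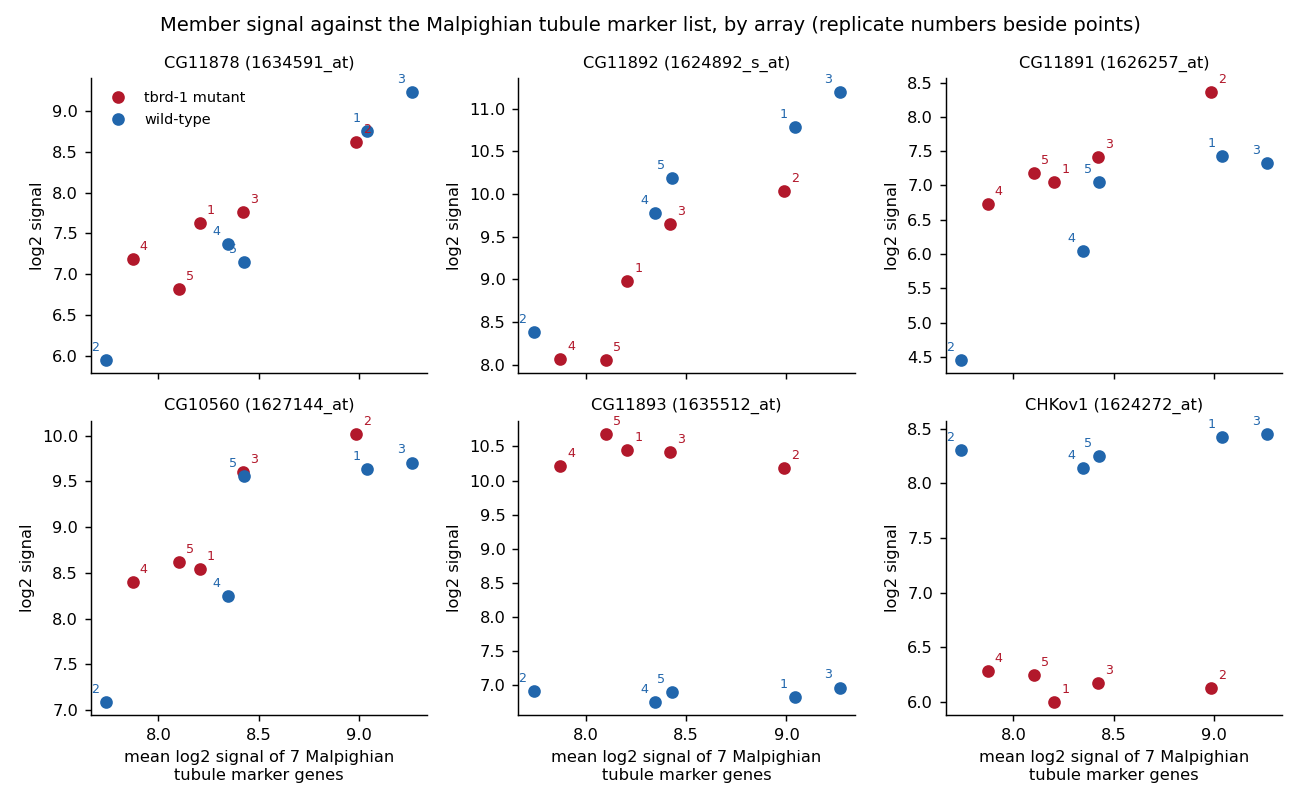
Log2 signal of 6 member probe sets against the mean log2 signal of 7 Malpighian tubule genes, each point 1 array with its replicate number, *tbrd-1* mutant in red and wild-type in blue. *CG11878*, *CG11892*, *CG11891* and *CG10560* climb with the tubule list in both genotypes, while *CG11893* and *CHKov1* (1624272_at) stay level at a height set apart by genotype.

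The slopes of the same 4 members passed with the gut list in the fit as well. They were then 1.69 for *CG11878* (adjusted p = 0.0034 from limma), 1.76 for *CG11892* (adjusted p = 0.0100), 2.01 for *CG11891* (adjusted p = 0.0092) and 1.86 for *CG10560* (adjusted p = 0.034). Without wild-type replicate 2, the array lowest in the tubule genes, *CG10560* no longer passed and 3 members remained. With the tubule list in the fit, the residual SD on the log2 scale was 0.30 for *CG11878* in place of 1.05, 0.34 for *CG11892* in place of 1.00, 0.43 for *CG11891* in place of 0.99 and 0.46 for *CG10560* in place of 0.96. Their differences between the genotypes moved with it. The log2-fold change was then 0.39 (SE 0.17) for *CG11878*, -0.66 (SE 0.19) for *CG11892*, 1.31 (SE 0.23) for *CG11891* and 0.60 (SE 0.25) for *CG10560*. The sign thus changed for *CG11878*, and *CG11891* came to lie above the fold minimum.

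The other members had no slope on the tubule list past the threshold, whether or not they separated the genotypes. The slopes were -0.05 (adjusted p = 0.89 from limma) for *CG11893*, 0.06 (adjusted p = 0.82) and 0.08 (adjusted p = 0.88) for the probe sets of *CHKov1*, and -0.02 (adjusted p = 0.96) for *CHKov2*. With the tubule list in the fit the differences of the members without overlap stayed at 3.51 for *CG11893* and -2.14 for *CHKov1* (1624272_at). The probe set shared by *CG11889* and *CG11891* had a slope of 0.24 (adjusted p = 0.38), unlike the 1.73 of the probe set of *CG11891* alone. Whether the slopes of these pairs of probe sets differ from each other was not tested. *CG10550* and *CG10553* had slopes of 0.21 each (adjusted p = 0.69 and 0.28).

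On the gut list 0 members passed the same test in limma (3 at an unadjusted p under 0.05), which 2.11% of all probe sets outside that list did. *CG11878* came nearest, with a slope of 0.51 (SE 0.15, adjusted p = 0.11 from limma), and *CG10550* had 0.17 (SE 0.05, adjusted p = 0.12). Without wild-type replicate 5, *CG10560* passed it. The slopes say how signals moved together over 10 arrays, and whether the RNA came from attached tubules or from the testis was not tested.

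**Figure D3:**
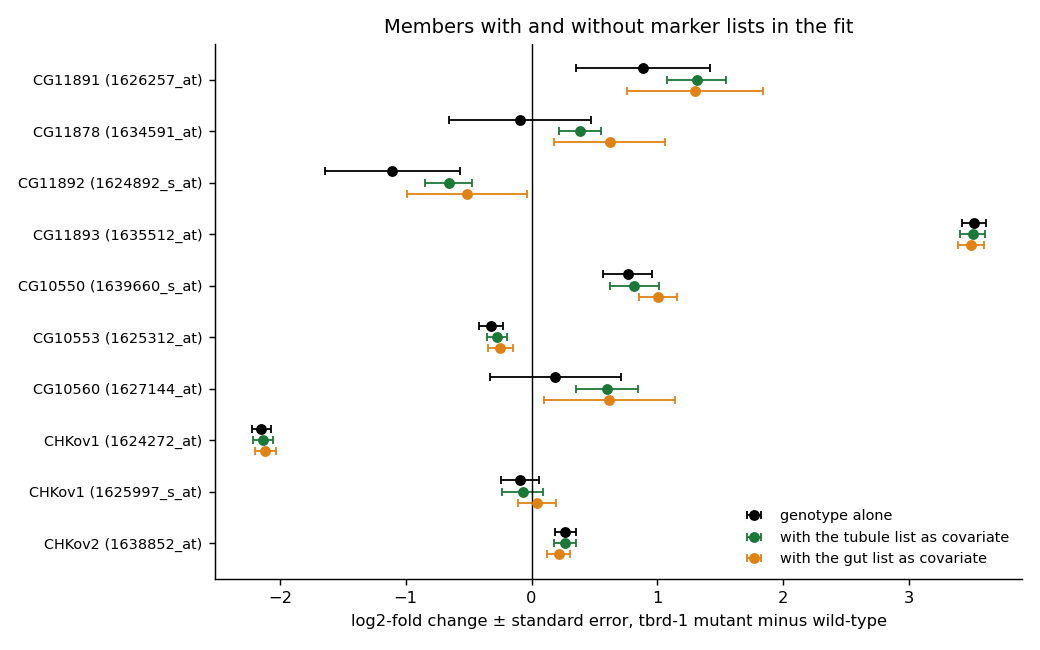
Log2-fold change of each member probe set, *tbrd-1* mutant minus wild-type, with its standard error (n = 5 arrays per genotype), from fits with genotype alone (black), with the Malpighian tubule list (green) and with the gut list (orange) as a covariate. *CG11893* stays near 3.5 and *CHKov1* (1624272_at) near -2.1 in all 3 fits, while *CG11878*, *CG11891*, *CG11892* and *CG10560* shift upwards with either list.

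The whole cluster, from *CG11889* to *CHKov2*, holds 26 genes in the Release 6 assembly, and every one carries an EcKL family synonym in the gene table. The 16 genes that are not members were not part of the choice, and each has 1 probe set. Among them 4 were down-regulated and 2 up-regulated in the mutant, and 10 did not pass, with a median log2-fold change of -0.42.

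The 2 up-regulated neighbours lay apart from wild-type on every array. *CG31300*, 3 places before *CG11893*, had 842, 817, 994, 993 and 944 in the mutant and 287, 231, 283, 249 and 173 in wild-type. *CG10559*, beside *CG10553*, had 219, 189, 195, 204 and 185 in the mutant and 45, 52, 45, 56 and 64 in wild-type. Neither overlapped between the genotypes. Both rose by 1.93 on the log2 scale, with an SE of 0.13 (adjusted p = 8.8e-07 from limma) for *CG31300* and of 0.10 (adjusted p = 1.2e-07) for *CG10559*.

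The 4 down-regulated neighbours differed in how cleanly they separated the genotypes. *CG31102* had 97, 122, 141, 89 and 129 in the mutant and 277, 222, 292, 243 and 246 in wild-type, without overlap, and a log2-fold change of -1.16 (SE 0.13, adjusted p = 4.3e-05 from limma). *CG31288* (-1.27, SE 0.28, adjusted p = 0.0044) and *CG10514* (-1.73, SE 0.40, adjusted p = 0.0064) varied more between arrays. *CG10514*, which lies beside *CG11892*, also had a tubule slope of 1.38 (adjusted p = 0.00033 from limma). The calls of *CG31288* and *CG10514* ended, at -1.04 and -1.25, when the 4 arrays bright in gut enzymes were left out and 6 arrays remained.

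*CG13658*, the gene directly before *CG11893*, was also down-regulated, with a log2-fold change of -2.25 (SE 0.57, adjusted p = 0.010 from limma). Its signal was 17, 16, 37, 17 and 15 in the mutant and 204, 36, 238, 121 and 30 in wild-type, so that the mutant arrays were dim and the wild-type arrays ranged widely. The bright arrays were those bright in gut enzymes, and its slope on the gut list was 0.69 (SE 0.05, adjusted p = 1.3e-05 from limma). The decrease stayed past the thresholds but was smaller with the gut list in the fit, at -1.30, and without those 4 arrays, at -1.02. *CG31099* was lower by a small but tight margin, with 2054, 2056, 2056, 1915 and 1990 in the mutant and 3081, 3262, 2983, 3285 and 3040 in wild-type (log2-fold change -0.64, SE 0.05, adjusted p = 3.2e-06 from limma), below the fold minimum. *CG31104*, which did not pass, had a gut slope of 0.47 (adjusted p = 1.0e-05) and read 66, 72, 139, 74 and 72 in the mutant and 104, 38, 135, 85 and 33 in wild-type. It was up-regulated, at 1.00, with those 4 arrays left out.

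**Figure D4:**
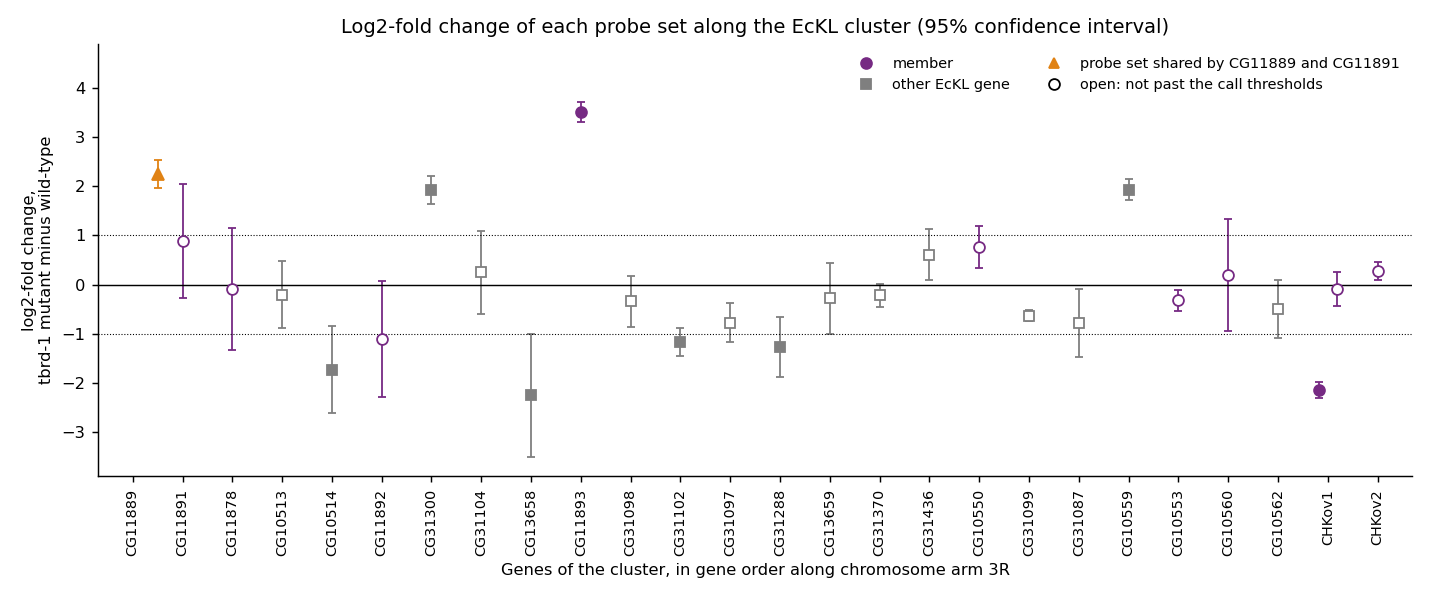
Log2-fold change, *tbrd-1* mutant minus wild-type, with its 95% confidence interval, of each probe set along the cluster, genes in their order on chromosome arm 3R and dotted lines at the fold minimum. Filled symbols passed both thresholds. Increases and decreases stand side by side along the cluster, with *CG13658* at -2.25 directly before *CG11893* at 3.52.

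Members and neighbours together had 5 probe sets down-regulated, 3 up-regulated and 18 that did not pass, out of 26. The shares over all probe sets were 2.36% and 1.18%, and *CG11893* and *CHKov1* were selected on this contrast. Among these 26 probe sets 8 had a tubule slope, 5 had a gut slope and 13 had neither. Of all probe sets outside the marker list in question, 1.4% had a tubule slope and 2.11% a gut slope. The 8 tubule slopes belonged to the 4 members above and to *CG10513*, *CG10514*, *CG13659* and *CG31097* (slopes 0.54 to 1.38). The gut slopes belonged to *CG13658*, *CG31104*, *CG10562*, *CG31087* and *CG31098*, none of them a member. Of the probe sets without overlap between the genotypes, 3 were higher in the mutant (*CG11893*, *CG31300* and *CG10559*) and 4 were lower (*CHKov1* on 1624272_at, *CG31097*, *CG31099* and *CG31102*), and only *CG31097* among them had a slope, on the tubule list. Over all probe sets, 13.6% lay above and 10.3% below wild-type on every mutant array, so nothing is read from these counts.

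With 1 probe set for each gene, the brightest over all arrays, 7 of 25 genes of the cluster (28.0%) were called, 4 down and 3 up. *CHKov1* is not among these, because its brighter probe set is the one without a difference. Of the 215 genes with a probe set just before *tbrd-1*, 12 (5.58%) were called. Of 216 genes with a probe set that lie between *tbrd-1* and the cluster, 4 (1.85%) were called, and of 194 on the far side of the cluster 6 (3.09%), each flank taken as a run of 285 genes in gene order. On the whole arm it was 142 of 2974 (4.77%), and over all genes 535 of 11982 (4.47%). These are counts, without a test, and the cluster genes include members selected on this contrast.

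Elsewhere in the genome 21 further EcKL genes had a probe set, and 4 were down-regulated and 1 up-regulated, beside 2.36% and 1.18% of all probe sets. *CG5644* rose by 1.61 on the log2 scale, with 102, 126, 118, 124 and 120 in the mutant and 37, 48, 35, 31 and 44 in wild-type (SE 0.12, adjusted p = 1.3e-06 from limma). *CG31380*, which lies beyond the cluster on the same arm, had 176, 146, 232, 212 and 132 in the mutant and 500, 584, 570, 546 and 582 in wild-type, a log2-fold change of -1.66 (SE 0.14, adjusted p = 5.3e-06). Neither showed any overlap. The decreases of *CG6830* (-1.55, adjusted p = 0.015 from limma), *CG9259* (-1.52, adjusted p = 0.029) and the juvenile hormone-inducible gene *JhI-26* (-1.05, adjusted p = 0.00052) each ended under some of the other settings, *CG6830* with the gut list in the fit, at -0.85. The 37 EcKL genes outside the members thus had 8 decreases and 3 increases past the thresholds, and 26 that did not pass, and 8 had a tubule slope. The shares over all probe sets were 2.36% for decreases and 1.18% for increases, and 1.4% for a tubule slope outside the tubule list. The muscle list was lower in the mutant as well, and its part in the decreases was not tested.

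Genes that make, carry and read ecdysteroids were looked at as the wider pathway. Of 9 genes of ecdysteroid synthesis, 0 were past the thresholds (4 had an unadjusted limma p under 0.05, and 0 passed with unmoderated variances), with a median log2-fold change of 0.16. The list was dim, with a mean log2 signal of 5.08 to 5.16 in the mutant and 4.81 to 5.02 in wild-type. The eggshell genes that a testis should lack lay at 4.96 to 5.09 and 4.88 to 5.10. The lack of calls can therefore not be read as an unchanged pathway. *shd*, for the enzyme of the last step to the active hormone, had 257 ± 8.53 in the mutant and 156 ± 14.4 in wild-type (SD, n = 5; log2-fold change 0.72, adjusted p = 1.5e-05 from limma), below the fold minimum. *nvd*, for the enzyme of the first step, had -0.60 (adjusted p = 0.013) and *sad*, for a late hydroxylase, 0.52 (adjusted p = 0.0016). The mean signal of *nvd* was only 18.4 in the mutant and 28.2 in wild-type, so the size of its change is uncertain.

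Of 5 genes of ecdysteroid inactivation and uptake, 0 were past the thresholds (2 had an unadjusted limma p under 0.05, and 0 passed with unmoderated variances). These genes were dim too, with a mean log2 signal of 5.10 to 5.51 in the mutant and 5.38 to 5.76 in wild-type. *Oatp74D*, for an importer of the hormone, had a log2-fold change of -0.69 (adjusted p = 0.0044), at mean signals of 29.4 in the mutant and 46.6 in wild-type. *Epp*, related to the silkworm phosphatase that frees ecdysteroids from their phosphate and so opposes the kinase, had -0.51 (adjusted p = 0.020), and *Cyp18a1*, for an inactivating hydroxylase, -0.20 (adjusted p = 0.21).

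Of 4 receptor genes, 0 were past the thresholds (1 had an unadjusted limma p under 0.05, and 0 passed with unmoderated variances). The coactivator gene *tai* had 0.53 (adjusted p = 0.0016), *EcR* -0.21 (adjusted p = 0.15) and its partner *usp* -0.13 (adjusted p = 0.13). *EcR* was dim, with mean signals of 27.6 in the mutant and 32.0 in wild-type. Of 21 genes named for their response to ecdysone or encoding receptors that act after it, *Eip63E* was up-regulated and 20 did not pass, with a median of 0.12. *Eip63E*, for a cyclin-dependent kinase, read 880, 966, 813, 943 and 947 in the mutant and 384, 419, 387, 405 and 379 in wild-type, a log2-fold change of 1.20 (SE 0.06, adjusted p = 1.1e-07). The nearest after it were *ImpE3* with 0.73 (adjusted p = 5.5e-06) and *MsrA* with -0.50 (adjusted p = 0.028). The ethanolamine kinase gene *eas* and the choline kinase gene *CG2201*, whose proteins share the fold, had 0.18 (adjusted p = 0.054) and -0.06 (adjusted p = 0.35 from limma).

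Across the 10 arrays, the genes whose log2 signal was most like that of *CG11893* by Pearson correlation were *TwdlV* (0.997), *CG8301* (0.996) and *aPKC* (0.996). For *CHKov1* (1624272_at) they were *Tsp42Eg* (0.997), *C1GalTA* (0.995) and *CG2736* (0.994). These likenesses rest on the gap between the genotypes, since each of these genes differs between them in the same direction. For *CG11878*, which varies within the genotypes, they were *Ugt301D1* (0.969), *Pgm1* (0.964) and *Cyp12a4* (0.957). With the genotype means removed, *CG11878* was most like *Fst* (0.983), *ine* (0.98) and *CG14606* (0.978), none of them an EcKL gene. *CG11892* was then most like *CG31106* (0.982), its neighbour in the cluster *CG10514* (0.979) and *Pgi* (0.976). *CG11891* was most like another EcKL gene, *CG32195* (0.95), with *Pfk* (0.949) and *Cyp6g1* (0.947) nearly level. Only these members are shown on this scale. All correlations are descriptions over arrays that share their RNA with every other gene.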

How the data were processed

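Testis RNA of *tbrd-1* mutant and wild-type flies was measured on 10 arrays, 5 per genotype. The deposited signal intensity values were made by the authors with RMA, which per the submitters' processing notes was run in Affymetrix Expression Console (versions not given in the sources used here). RMA equalizes the distributions of the arrays at the level of single probes, so a shift of most genes can be lost. The medians of the deposited probe set values still ran from 67 to 70 on mutant arrays and from 68 to 77 on wild-type arrays. Rounding to whole numbers makes dim values coarse.

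Log2 of these intensities went into limma 3.58.1 (R 4.3.3; lmFit, then eBayes) for 18769 probe sets, without the 183 controls. Genotype was the only term, and p-values were adjusted by Benjamini-Hochberg. The thresholds are those of the study, which names limma in 1 place and a t-test in another (run as an alternative). The fit was tested on simulated data. Probe sets were named from the platform annotation (13647 with 1 gene, 402 with several, 4720 with none), and 13544 symbols were updated with the Release 6 gene table. The files name no build, so only names, arms and gene order were taken from it. Figures were made in Python 3.11.15 (matplotlib 3.10.9).

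The members, the gene lists and the rule for named genes were chosen with earlier results of these data known. Named were all members, all cluster genes, called EcKL genes, the called genes and the 3 largest changes of each ecdysteroid list, and the 3 genes most like a member. The lists, 1 probe set per gene, were other EcKL genes, ecdysteroid synthesis, inactivation and uptake, receptor and response, choline and ethanolamine kinases, gut, ejaculatory bulb, accessory gland, fat body, Malpighian tubule, muscle, cyst cell and hub, eggshell, and spermatocyte and sperm. The cyst cell and hub list lay between 5.96 and 6.16 in the mutant and 5.86 and 6.18 in wild-type, and *Ebp* and *EbpII* of the ejaculatory bulb between 6.63 and 13.4 and between 5.25 and 13.2.

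Alternatives were the t-test, arithmetic means, a variance trend, a robust prior, array weights, dim probe sets left out, control probe sets kept, median centring, a pseudocount of 16, other fold minimums, the replicate number as a block, marker lists as covariates, and arrays left out. The slopes and the tubule covariate were chosen after seeing the data.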

Additional observations from a re-analysis of the deposited data

Results flagged for a closer look

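In 94 groups of 5 arrays, 5 had an array far from the others by Dixon's ratio of the gap to the range of the log2 signals, where chance alone gives about 1 in 20. *CG13658* was 37 on mutant replicate 3 and 15 to 17 on the other mutant arrays (ratio 0.861). *CG31104* was 139 on mutant replicate 3, with 74 as the next value and 66 as the lowest (ratio 0.846). Mutant replicate 3 was the mutant array with the highest gut list mean, at 7.51, and both genes had slopes on that list. The other cases were *usp*, 118 on mutant replicate 2 beside 131 to 134 on the others (ratio 0.822), *shd*, 131 on wild-type replicate 3 beside 159 to 168 (ratio 0.779), and *Oatp74D*, 39 on wild-type replicate 2 beside 47 to 50 (ratio 0.751). No member had such an array.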

How the results depend on the processing

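There were 1003 decreases and 799 increases over all probe sets at a fold minimum of 1.5, and 101 and 30 at a fold minimum of 4, where 1 EcKL gene outside the members was still down-regulated and 0 up-regulated. With median centring there were 368 decreases and 295 increases, and the share of decreases was 55.5% in place of 66.7%. The count of members up-regulated was 2 at a fold minimum of 1.5 (with *CG10550*), 2 with the gut list as a covariate (with *CG10550*) and 2 with the tubule list (with *CG11891*), and the count down-regulated ranged from 1 to 2 with an array left out, 2 without wild-type replicate 2. EcKL genes outside the members down-regulated were 5 with the gut list, with the gut and *Ebp* lists, and with the 4 gut-bright arrays left out.

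The members with a tubule slope ranged from 3 to 4 and the other EcKL genes from 5 to 9 with an array left out, 5 without wild-type replicate 1 or 3. Members with a gut slope ranged from 0 to 1. Same-numbered arrays deviated together in part for replicates 3 and 5 (correlations of 0.482 and 0.281) and not for replicates 1, 2 and 4 (-0.315, -0.191 and -0.049). In no case was the correlation best with the same number. With the replicate number as a block, 2 members (*CG11878* and *CG11891*, without *CG11892* and *CG10560*) and 5 other EcKL genes had a tubule slope, and *CG9259* lost its call. No called difference changed direction. Of 893 values of single genes under these alternatives, 21 lost a call and 1 (*CG31104*) gained one. Members and their shared probe sets are among these values, but as descriptions they were not counted as gaining or losing a call. *CG10550* with the gut list, *CG11891* with the tubule list and *CG11892* without wild-type replicate 2 came to lie past the thresholds. Outside the members, *CG9259* and *JhI-26* crossed the thresholds most often, between -1.87 and -0.94 and between -1.17 and -0.94. *CG11878* ranged from -0.53 to 1.01. Dim probe sets, such as *CG13658* in the mutant, give uncertain sizes.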
